A study of Mus musculus with 2 samples.

Results

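The 9 genes described here make, bind or break down hyaluronan, out of 32285 genes counted. They were taken by symbol, and each symbol had 1 row in the deposited tables. They are the synthases Has1 and Has2, the matrix cross-linkers Ptx3 and Tnfaip6, the proteoglycan Vcan, the receptors Cd44 and Lyve1, and the hyaluronidases Hyal1 and Hyal2. The cells came from whole uteri of female C57BL/6J mice aged 6 months, digested with collagenase for 5 hours and captured in droplets, with transcripts read from their 3-prime end as unique molecular identifiers (UMIs). The library labelled control came from Prickle1 f/f mice and the library labelled cKO from Prickle1 f/f MiC mice, and each was a pool of 3 uteri. The study asked what loss of Prickle1 in the myometrium does to the uterus and its extracellular matrix. MiC is not explained in the labels, where both libraries carry the genotype entry wild-type.

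Hyaluronan is a long sugar polymer that synthases in the plasma membrane extrude directly into the extracellular space. It holds water and gives tissue a loose, swollen matrix, and in the female reproductive tract it is best known from the cumulus around the ovulated egg and from cervical softening. The proteins encoded by Tnfaip6 (TSG-6) and Ptx3 (pentraxin 3) cross-link it, versican anchors it in larger aggregates, CD44 and LYVE1 bind it at the cell surface, and hyaluronidases cut it.

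Promoter sequence is shown for 3 genes that lay mostly in fibroblast-like cells (below) and whose window held one of the motifs searched. Each window has 300 bases, from 250 before to 50 after the annotated start, and is taken from RefSeq on GRCm38.p6. Windows were matched for Has1, Cd44, Ptx3, Tnfaip6, Vcan, Hyal1 and Hyal2. For Has1, Vcan, Hyal2 and, by a few bases, Cd44 the start used lies inside the gene span given below and not at its outer end. The transcript it belongs to is not given here. Capitals mark the motif matches. The windows are chr17:17855139-17855438 on the minus strand for Has1, chr3:66219637-66219936 on the plus strand for Ptx3 and chr2:52037863-52038162 on the plus strand for Tnfaip6, printed 5′ to 3′ along the gene.
Has1: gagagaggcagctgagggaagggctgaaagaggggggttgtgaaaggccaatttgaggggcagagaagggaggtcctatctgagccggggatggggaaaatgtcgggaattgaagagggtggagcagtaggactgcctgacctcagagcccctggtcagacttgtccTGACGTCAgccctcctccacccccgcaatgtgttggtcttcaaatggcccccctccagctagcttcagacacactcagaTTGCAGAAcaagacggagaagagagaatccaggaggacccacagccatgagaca
Ptx3: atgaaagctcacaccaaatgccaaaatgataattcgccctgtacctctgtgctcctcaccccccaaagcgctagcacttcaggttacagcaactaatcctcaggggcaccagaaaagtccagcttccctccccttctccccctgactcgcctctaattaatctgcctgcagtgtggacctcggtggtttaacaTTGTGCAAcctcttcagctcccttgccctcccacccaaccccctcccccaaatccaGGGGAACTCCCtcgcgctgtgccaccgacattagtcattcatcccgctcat
Tnfaip6: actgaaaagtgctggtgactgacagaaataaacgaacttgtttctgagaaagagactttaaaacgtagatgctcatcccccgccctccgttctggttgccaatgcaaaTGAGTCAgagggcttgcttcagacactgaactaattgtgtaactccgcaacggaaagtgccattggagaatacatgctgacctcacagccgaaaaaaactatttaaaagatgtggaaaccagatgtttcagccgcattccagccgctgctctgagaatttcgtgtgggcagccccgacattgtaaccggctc
Both strands were searched for the motifs of AP-1, CRE, C/EBP, TATA and NF-kappa B. The Has1 window held the CRE (TGACGTCA), found in 1.79% of 32851 promoter windows of the same length, and the C/EBP motif (TTGCNNAA), found in 10.8%. The Ptx3 window held the C/EBP motif and a pair of overlapping NF-kappa B matches at the start site, a motif found in 8.46% of windows. The Tnfaip6 window held the AP-1 motif (TGANTCA), found in 7.81%. The TATA motif (TATAAA) was in 0 of the 7 matched windows and in 13.6% of all windows. Hyal2 held the NF-kappa B motif, and none of the 5 motifs was found in the windows of Cd44, Vcan or Hyal1. These matches describe letters in the windows.

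The libraries held 45035801 (control) and 34261441 (cKO) UMIs. After filtering there were 3490 and 3586 cells, with medians of 4953 and 4903 UMIs, and 6 cell barcodes occurred in both libraries. Prickle1 UMIs were not fewer in the library labelled cKO. They numbered 96 over all cells of control and 265 over all cells of cKO, which differ in their shares of cell classes. In smooth muscle-like cells they numbered 15 and 52 (15.3 and 24.6 CPM, defined below). The ratio there was 1.61, with a 95% interval of 0.893 to 3.08 that includes 1. A 3-prime count outside a deleted exon would not show the deletion, and the deleted part is not given in the sources used here. The direction of every difference below is therefore that between libraries as labelled. Fibroblast-like cells were 24.8% and 38.1% of cells in control and cKO, and epithelium-like cells 37.7% and 3.04%. With 1 pooled library per group there is no replicate and no test. Levels are counts per 1000000 UMIs of the class (CPM), log2 ratios are cKO over control after adding 5 CPM to each, and all intervals are 95% and cover counting error only.

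Has1, Has2, Ptx3, Tnfaip6 and Vcan were fibroblast genes in both libraries. Fibroblast-like cells held 95.5% (control) and 98.2% (cKO) of the Has2 UMIs found in cells, 97.0% and 97.5% of those of Ptx3, 94.2% and 95.2% of those of Tnfaip6, 89.4% and 93.7% of those of Has1, and 86.5% and 91.2% of those of Vcan. Cd44 was spread more widely, with 71.6% and 77.8% in fibroblast-like cells. Hyal1 lay in epithelium-like cells in the library labelled control (86.3%) and was scattered in the library labelled cKO, where those cells were few. Lyve1 lay in lymphatic endothelium-like cells, with 89.1% and 74.2% of its UMIs.

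**Figure D1:**
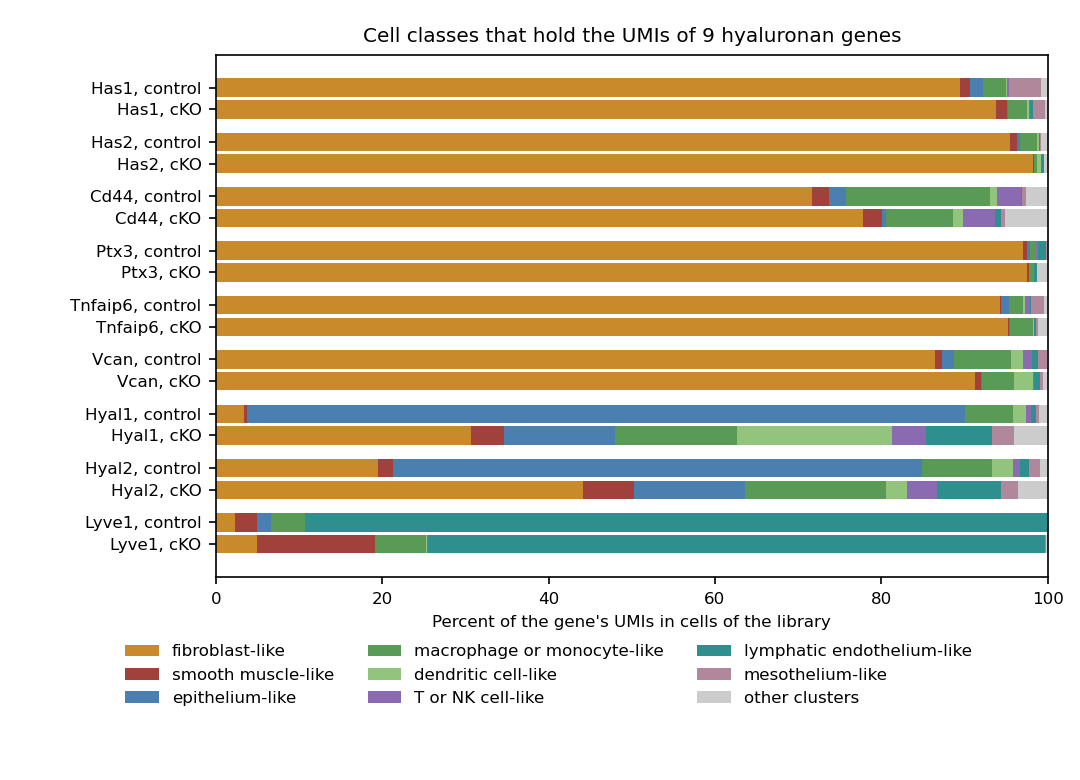
Each bar divides the UMIs of 1 gene in the cells of 1 library (x axis, percent) among cell classes (colours). Fibroblast-like cells hold over 86% of the bar for Has1, Has2, Ptx3, Tnfaip6 and Vcan in both libraries, while Hyal1 and Lyve1 lie mainly elsewhere.

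Over all cells Has2 was at 49.1 CPM in control and 192 in cKO, a ratio of 3.91 (3.71 to 4.12), and Tnfaip6 at 69.4 and 272 CPM, a ratio of 3.92 (3.75 to 4.09). Those ratios include the different shares of fibroblast-like cells, so the levels below are given within classes.

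Has2, the synthase of most tissue hyaluronan, was at 180 CPM (172 to 189) in fibroblast-like cells in control, and in cKO it was at 333 CPM (324 to 342). The ratio was 1.85 (1.75 to 1.95), or 0.87 on the log2 scale. Has1 had 244 CPM (235 to 254) and 362 CPM (353 to 371), a log2 ratio of 0.56. Both synthases were thus higher in the library labelled cKO, and neither reached 2-fold. Outside fibroblast-like cells Has1 was also present in mesothelium-like cells, at 112 and 163 CPM, from 80 and 31 cells, too few to compare. The summed level of the 7 fibroblast markers there was 9500 and 12440 CPM, beside 11980 and 11040 CPM in fibroblast-like cells, and cells with at least 4 of them held 50% and 44.0% of those Has1 UMIs. Has3, the other synthase, stayed under 10 CPM (1.74 and 1.26) in fibroblast-like cells.

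A Has2 UMI was found in 28.5% (25.5 to 31.6%) of fibroblast-like cells in control and 46.0% (43.3 to 48.7%) in cKO, at median depths of 9542 and 10176 UMIs. With every cell thinned to 1000 UMIs, which removed no cell, the shares were 9.49% and 20.4%. In T or NK cell-like cells, which should lack the gene, Has2 was found in 0 of 191 and 0 of 428 cells. At 3 counts this allows shares of cells with a UMI of up to 1.57% and 0.701%, at medians of 4030 and 3488.5 UMIs. Has2 was found in 7 of 321 and 7 of 227 macrophage or monocyte-like cells and 2 of 149 and 4 of 207 dendritic cell-like cells. Cells with at least 4 fibroblast markers held 97.4% and 90.9% of the UMIs in the former and 80% and 91.3% in the latter. Free RNA, scaled from empty droplets, would give 1.52 and 3.34 CPM of Has2, far under the fibroblast-like levels.

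The fibroblast-like cells fell into 6 clusters, and the synthases were not spread evenly over them. Cluster 9, the largest, had 199 cells in control and 505 in cKO and was led by Dpt, Thbd, Has2, Mmp3 and Ptx3, although the hyaluronan genes had no part in the clustering. There Has2 was at 343 and 651 CPM and Has1 at 321 and 657 CPM, log2 ratios of 0.92 and 1.02. In cluster 4, with 309 and 365 cells, Has2 was at 103 and 184 CPM and Has1 at 206 and 260 CPM. Has2 was higher in cKO in all 4 clusters with at least 20 cells in each library, and Has1 in 3 of them, with cluster 12 at 396 and 304 CPM and a ratio interval of 0.521 to 1.10. Cluster 5, led by Dio2, Aldh1a2 and Col6a4, had 18 cells in control and 226 in cKO and low levels in cKO (Has2 51.0 and Has1 46.8 CPM). Cluster 5 was the one fibroblast-like cluster that came over 90% from 1 library. Leaving it out gave log2 ratios of 1.23 for Has2 and 0.95 for Has1. Cluster 9 then made up 199 of 846 cells in control and 505 of 1139 in cKO. These ratios, like those of the whole class, therefore include different shares of the clusters. Within clusters 9 and 4 the log2 ratios were 0.92 and 0.80 for Has2 and 1.02 and 0.33 for Has1.

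**Figure D2:**
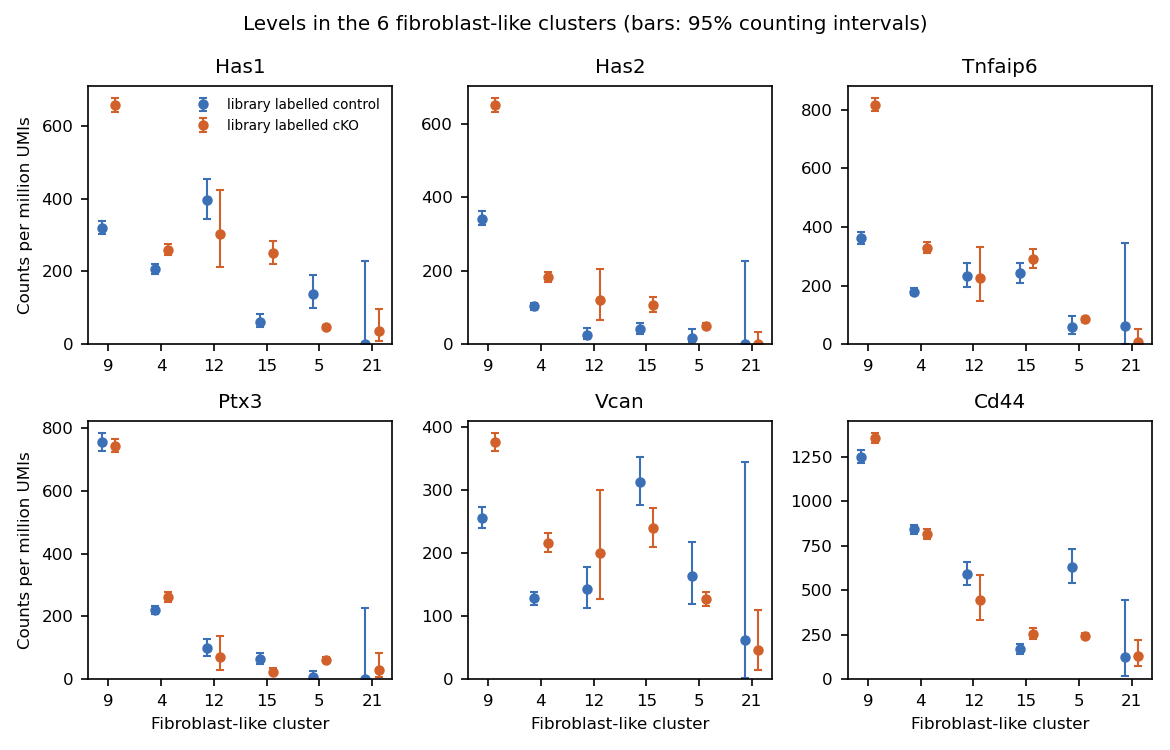
Level (y axis, CPM of the cluster) of 6 genes in the fibroblast-like clusters (x axis, by number, in order of cell number) in each library; bars are 95% counting intervals. Cluster 9 has the highest level of Has2, Ptx3, Tnfaip6 and Cd44 in both libraries, and its Has1, Has2 and Tnfaip6 levels are higher in cKO while Ptx3 is not.

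Of the 7 listed enzymes that make the sugar nucleotides for hyaluronan, all 7 had a log2 ratio above 0 in fibroblast-like cells, with a median of 0.56 beside 0.10 over the 8163 genes measured there, of which 65.4% were above 0. Ugdh, which makes UDP-glucuronic acid, was at 505 CPM in control and 887 in cKO (log2 0.81). Uap1, which makes UDP-N-acetylglucosamine, had 958 and 3132 UMIs (log2 0.91). None passed 2-fold over all fibroblast-like cells. In cluster 9, 3 of the 7 did: Uap1 (113 and 305 CPM), Ugp2 (77.6 and 186 CPM) and Ugdh (763 and 1648 CPM). Of the 7892 genes measured in cluster 9, 0.874% were at least 2-fold higher and 0.722% at least 2-fold lower. Pgm3 was at 30.8 and 34.2 CPM, with a ratio interval of 0.965 to 1.28 that includes 1. Without the fibroblast-like cluster 5, which held 18 control and 226 cKO cells, 6 of the 7 were above 0 (Pgm3 at -0.08). Ugdh and Uap1 were then at 1.17 and 1.14, Gfpt1 at 0.21 in place of 0.59 and Gnpnat1 at 0.32 in place of 0.50 (log2). These values also include the larger share of cluster 9 among cKO cells.

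Tnfaip6 and Ptx3 encode partners in the same cross-linked matrix, and they differed in how they compared between the libraries. Tnfaip6 was at 251 CPM (241 to 261) in fibroblast-like cells in control. In cKO it was at 457 CPM (447 to 467), a log2 ratio of 0.85. Ptx3 had 392 CPM (380 to 405) in control and 388 CPM (378 to 397) in cKO, with a ratio interval of 0.950 to 1.03. In cluster 9 Tnfaip6 was at 361 and 816 CPM (log2 1.17), and Ptx3 at 756 and 745 CPM. Tnfaip6 was higher in cKO in 3 of the 4 clusters with at least 20 cells in each library. Its ratio interval included 1 in clusters 15 (0.997 to 1.44) and 12 (0.610 to 1.49). Ptx3 was higher in 1 of them, cluster 4 (220 and 263 CPM, ratio interval 1.10 to 1.31). Its interval included 1 in clusters 9 (0.941 to 1.03) and 12 (0.292 to 1.51) and was 0.220 to 0.614 in cluster 15. Without cluster 5 the Ptx3 log2 ratio over fibroblast-like cells was 0.34 and that of Tnfaip6 was 1.20. Both values include the larger share of cluster 9 among cKO cells.

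Ptx3 UMIs were concentrated in few cells. In control 13 of 864 fibroblast-like cells held 50% of them, and in cKO 30 of 1365. The cell with the most held 392 UMIs in control and 398 in cKO. For Has2 the same share took 41 and 99 cells, for Tnfaip6 39 and 81, and for Has1 44 and 93. The total for Ptx3 thus rests on few cells, which the counting interval does not cover.

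**Figure D3:**
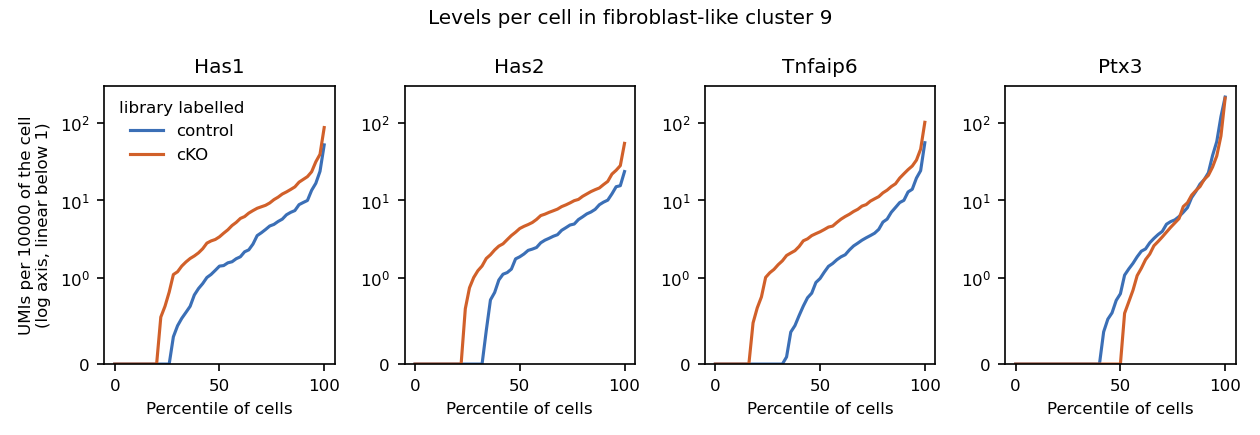
Level per cell (y axis, UMIs per 10000 of the cell, log axis that is linear below 1) at each percentile of cells (x axis) of fibroblast-like cluster 9. The cKO curves of Has1, Has2 and Tnfaip6 lie above those of control over most cells, whereas for Ptx3 control lies above cKO just over the median (1.54 and 0.857 at percentile 56) and near the top (57.5 and 37.6 at percentile 96), and the curves cross between.

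Fibroblast-like cells with a Ptx3 UMI more often held a Has2 UMI. After thinning to 1000 UMIs, Has2 was found in 24.0% (15.8 to 33.8%) of Ptx3-positive and 7.68% (5.90 to 9.80%) of Ptx3-negative cells in control, and in 37.9% (30.7 to 45.6%) and 17.8% (15.7 to 20.1%) in cKO. For the other pairs examined, thinned control intervals overlapped for Ptx3 with Tnfaip6, Ptx3 with Has1, Has1 with Has2 and Has2 with Tnfaip6. They did not overlap for Has1 with Tnfaip6, nor for any of these pairs in cKO. The shares pool all fibroblast-like clusters, of which cluster 9 was highest in both Ptx3 and Has2. Cells of 1 library are not replicates, so these shares describe each library.

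Vcan, the large proteoglycan that links hyaluronan to other matrix proteins, had 193 CPM (184 to 201) in fibroblast-like cells in control. Its level in cKO was 257 CPM (249 to 265), a log2 ratio of 0.41. It was higher in cKO in clusters 9 (255 and 375 CPM), 4 (128 and 216 CPM) and 12 (143 and 200 CPM) and lower in cluster 15 (312 and 239 CPM). The ratio interval was 0.838 to 2.26 in cluster 12, which includes 1, and 0.640 to 0.916 in cluster 15. Of the versican-cleaving proteases, Adamts1 was at 973 and 1008 CPM and Adamts4 at 113 and 148 CPM in fibroblast-like cells. The other hyalectans and link proteins listed stayed under 10 CPM there.

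In all, 6 of the 9 genes reached 10 CPM in fibroblast-like cells, and 0 of them were at least 2-fold higher or lower in cKO. Among all genes measured there, 1.63% were at least 2-fold higher and 0.858% at least 2-fold lower. The median log2 ratio of the 6 was 0.48, beside 0.10 for all genes.

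Cd44, the main hyaluronan receptor, was present in most classes. In fibroblast-like cells it was at 914 CPM (895 to 933) in control and 837 CPM (823 to 851) in cKO. In macrophage or monocyte-like cells it was at 772 and 855 CPM, in T or NK cell-like cells at 389 and 405 CPM, and in smooth muscle-like cells at 262 and 189 CPM. Among the 6 named classes compared, fibroblast-like cells had the highest level in control and macrophage or monocyte-like cells in cKO, and in cKO the intervals of these classes overlapped. The rest kept 1 order in both libraries: T or NK cell-like, smooth muscle-like, dendritic cell-like (71.6 and 116 CPM) and epithelium-like cells. Classes with few cells reached higher levels, mast cell-like at 1045 and 981 CPM (42 and 53 cells) and granulocyte-like at 1447 and 2005 CPM (5 and 30 cells). In smooth muscle-like cells, control cells with at least 4 fibroblast markers held 35.4% of the Cd44 UMIs, and without such cells the levels were 184 and 187 CPM.

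Epithelium-like cells had the lowest Cd44 level of these classes, 13.4 CPM (11.8 to 15.1) in control. In cKO it was 66.6 CPM (53.4 to 82.0), a log2 ratio of 1.96. The control level was under the 18.0 CPM that free RNA would give, and the cKO level was above its 19.0 CPM. In cluster 7, the epithelium-like cluster with the most cKO cells (269 and 75), it was at 14.7 and 72.9 CPM. In cluster 0 (611 and 33 cells) it was at 19.2 and 7.24 CPM (log2 -0.99), from 44 UMIs and 1 UMI. Of the 88 cKO UMIs, 50% lay in 4 of 109 cells. The class levels also include the deep cluster 6, with 223 cells in control and 1 in cKO, at a median of 36140 UMIs. In this class 1 of 3 measured genes, Cd44, was at least 2-fold higher, where 13.7% of all genes were, and 1, Hyal1, was at least 2-fold lower, where 7.34% were.

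**Figure D4:**
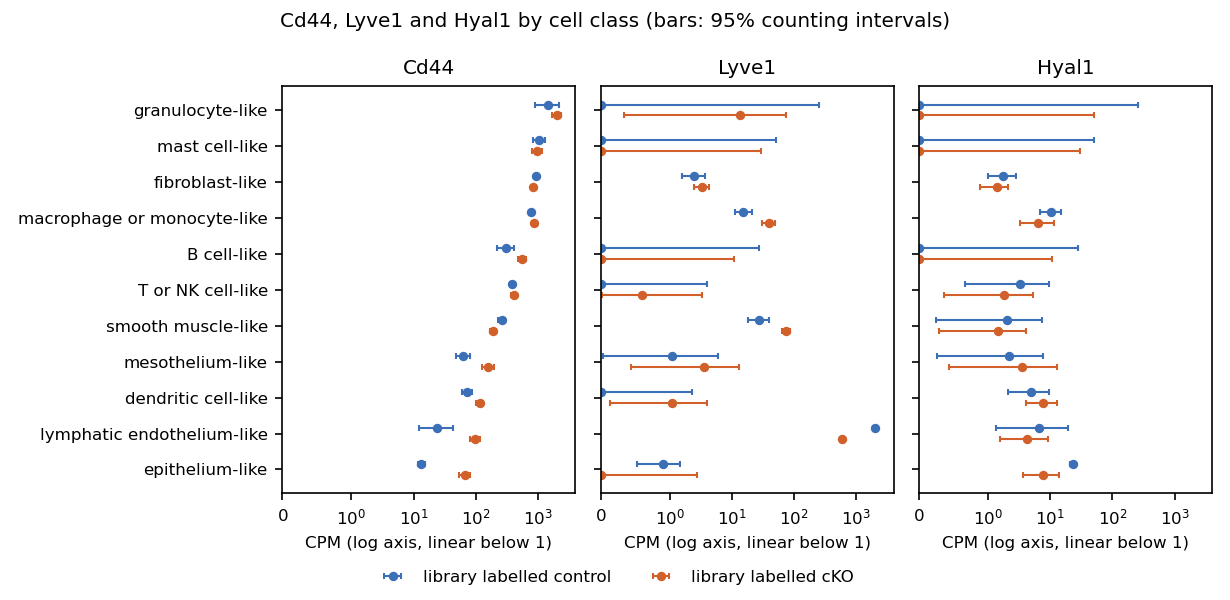
Level (x axis, CPM, log axis that is linear below 1) of Cd44, Lyve1 and Hyal1 in each cell class in the 2 libraries; bars are 95% counting intervals. Cd44 spans most classes, Lyve1 is highest in lymphatic endothelium-like cells, and Hyal1 is highest in epithelium-like cells of the library labelled control.

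Lyve1, the receptor of lymphatic vessels, was at 2022 CPM (1894 to 2157) in the 30 lymphatic endothelium-like cells of control and 585 CPM (545 to 626) in the 102 of cKO. With 30 cells the control class is under the 100-cell minimum, so no ratio is given, and 2 of the 30 control cells held 50% of its UMIs. The 6 lymphatic markers all had UMIs in both libraries, and their summed level was 9920 CPM in control and 5465 CPM in cKO. Of the 6, 5 had a lower level in cKO, such as Ccl21a (6267 and 2640 CPM) and Flt4 (299 and 97.9 CPM), and Prox1 did not (1365 and 1465 CPM). Summed markers of other types in this class were at 172 and 712 CPM for fibroblasts, 17.6 and 352 CPM for dendritic cells and 2.20 and 163 CPM for T or NK cells, and their part in the Lyve1 level was not tested.

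Smooth muscle-like cells held Lyve1 at 27.5 CPM (18.1 to 40.0) in control and 74.3 CPM (63.1 to 86.9) in cKO, a log2 ratio of 1.29. The free RNA share would give 1.16 and 2.19 CPM. A Lyve1 UMI was found in 21 of 313 and 91 of 683 cells, and 0 of these cells in either library held UMIs of 2 or more of Prox1, Flt4, Mmrn1, Ccl21a and Reln. The summed level of these 5 lymphatic markers and Pecam1 in the class was 8.15 and 16.1 CPM, with Prox1, Flt4, Mmrn1 and Reln at 0 in control and Flt4 and Reln at 0 in cKO. The gene lay mainly in cluster 22, which was led by Flrt1, Tmem200a and Gata6 and had 89 and 329 cells, at 40.05 and 96.9 CPM (log2 1.18). In the other smooth muscle-like cluster, 10, it was at 11.6 and 13.9 CPM. Cluster 22 made up 89 of the 313 cells of the class in control and 329 of the 683 in cKO. In macrophage or monocyte-like cells Lyve1 was at 15.4 and 39.4 CPM (log2 1.13). With cells thinned to 1000 UMIs that log2 ratio was 0.08, from 12 and 9 UMIs.

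Hyal1, a lysosomal hyaluronidase, was at 23.0 CPM (20.8 to 25.2) in epithelium-like cells of control and 7.57 CPM (3.63 to 13.9) in those of cKO, from 434 and 10 UMIs, a log2 ratio of -1.15. In control its levels were highest in clusters 0 (50.7 CPM, 611 cells) and 2 (48.9 CPM, 212 cells), which had 33 and 0 cells in cKO. In cluster 7, with cells of both, it was at 18.4 and 8.57 CPM. Cluster 7 was the one epithelium-like cluster not drawn over 90% from a single library, and its log2 ratio was -0.79. The class levels also include cluster 6, with 223 cells in control and 1 in cKO, at a median of 36140 UMIs. Hyal2, which is anchored to the cell surface, was at 15.2 and 19.7 CPM in epithelium-like cells, a ratio of 1.29 (0.830 to 1.93). In fibroblast-like cells Hyal2 had 88 and 86 UMIs and was under the 10 CPM minimum, as were Hyal1 and Lyve1. Of 5 other breakdown genes measured in fibroblast-like cells, 4 had a log2 ratio below 0, the farthest being Hexa, a lysosomal hexosaminidase subunit (50.3 and 25.7 CPM, log2 -0.85), and none passed 2-fold. Among the other receptors Layn (layilin) was at 22.8 and 10.3 CPM (log2 -0.86), Tlr2 at 17.6 and 9.56 CPM (log2 -0.63) and Tlr4 at 40.2 and 40.3 CPM. Of the 40 other listed genes, 20 were measured in fibroblast-like cells, and 0 passed 2-fold in either direction. In macrophage or monocyte-like cells 0 of 19 measured were at least 2-fold higher, where 1.3% of all genes were, and 0 lower, where 2.56% were. In T or NK cell-like cells 3 of 13 measured were at least 2-fold lower (Hmmr, Tlr2 and Adamts1), where 4.33% of all genes were, and 0 higher. In cluster 11, 2 of 12 were higher (Pgm3 and Adamts1), where 3.76% of all genes were. In dendritic cell-like cells 1 of 11 was higher (Adamts1), where 3.7% were. In epithelium-like cells 1 of 14 was higher (Gnpnat1), where 13.7% were, and 1 lower (Tlr2), where 7.34% were. In smooth muscle-like cells 1 of 17 was higher (Adamts4), where 3.52% were, and 3 lower (Gfpt2, Hexa and Gusb), where 2.19% were.

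Outside the fibroblast-like cells several of the fibroblast genes had counts that came from few cells. The summed level of the 7 fibroblast markers (Pdgfra, Dcn, Lum, Col1a1, Col3a1, Dpt and Mfap5) was 885 and 736 CPM in macrophage or monocyte-like, 1061 and 595 CPM in smooth muscle-like, 419 and 121 CPM in T or NK cell-like and 151 and 256 CPM in dendritic cell-like cells. All 7 had UMIs there except Mfap5, which was at 0 in T or NK cell-like cells of control and dendritic cell-like cells of cKO. In macrophage or monocyte-like cells Tnfaip6 was at 15.4 and 134 CPM (log2 2.77), but 96.05% of the 228 cKO UMIs lay in 9 cells that held UMIs of at least 4 of the 7 fibroblast markers, 1 of them with 110. Without such cells it was at 4.55 and 5.82 CPM (log2 0.18). In smooth muscle-like cells all 15 control UMIs of Has2 and all 20 of Ptx3 lay in such cells, and without them the log2 ratios turned from -1.37 to 0.37 and from -1.19 to 1.11, the latter from 0 and 12 UMIs. Has1 in macrophage or monocyte-like cells was at 26.1 and 88.9 CPM (log2 1.60) and, without such cells, at 3.73 and 19.4 CPM (log2 1.48), from 9 and 30 UMIs. Free RNA would give 3.74 and 4.76 CPM of Has1. Vcan in dendritic cell-like cells was at 19.0 and 58.9 CPM (log2 1.41), and 1 of 207 cKO cells held 56 of its 109 UMIs. The class joins cluster 17 with cluster 20, which held 50 control and 2 cKO cells. In cluster 17 (99 and 205 cells) Vcan had 1 and 109 UMIs, a log2 ratio of 3.45, and 30 of the 31 control UMIs lay in cluster 20. Has1 in smooth muscle-like cells was at 34.6 and 42.1 CPM (log2 0.25). The 89 cKO UMIs lay in 49 cells, and 1.12% of them lay in cells with at least 4 fibroblast markers. In cluster 22 it was at 51.0 and 53.3 CPM, where free RNA would give 3.74 and 4.76 CPM. The part of doublets in these values was not tested.

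The 4 erythroid markers, hemoglobin genes, also differed between the libraries within these classes. Their summed level was 9.29 and 1871 CPM in macrophage or monocyte-like, 5.51 and 1751 CPM in dendritic cell-like, 16.3 and 3453 CPM in T or NK cell-like, 11.9 and 960.7 CPM in cluster 11, 46.9 and 960.9 CPM in smooth muscle-like, 91.7 and 3.78 CPM in epithelium-like and 329 and 232 CPM in fibroblast-like cells. All 4 had UMIs in each except Hbb-bt, which was at 0 in macrophage or monocyte-like, dendritic cell-like and cluster 11 cells of control. Their part in the differences within classes was not tested.

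In macrophage or monocyte-like cells 3 of 9 genes were at least 2-fold higher (Has1, Tnfaip6 and Lyve1), where 1.3% of all genes were, and 0 lower, where 2.56% were. In dendritic cell-like cells 2 of 3 were higher (Has2 and Vcan), where 3.7% of all genes were, and 0 lower (4.2%). Has2 there had 5 UMIs in control and 23 in cKO, and 3 cKO cells with at least 4 fibroblast markers held 91.3% of the latter. Without such cells the Has2 log2 ratio was 0.12. In smooth muscle-like cells 1 of 6 was higher (Lyve1; 3.52% of all genes) and 2 lower (Has2 and Ptx3; 2.19%). In T or NK cell-like cells 0 of 3 were higher (2.06% of all genes) and 2 lower (Tnfaip6 and Vcan; 4.33%), from 16 and 22 UMIs in control, of which 1 cell held 16 and 19. In the unnamed cluster 11, led by Il2rb and Gzma, Cd44 alone reached 10 CPM, at 151 and 189 CPM, and it passed 2-fold in neither direction (3.76% of all genes were higher and 3.51% lower).

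**Figure D5:**
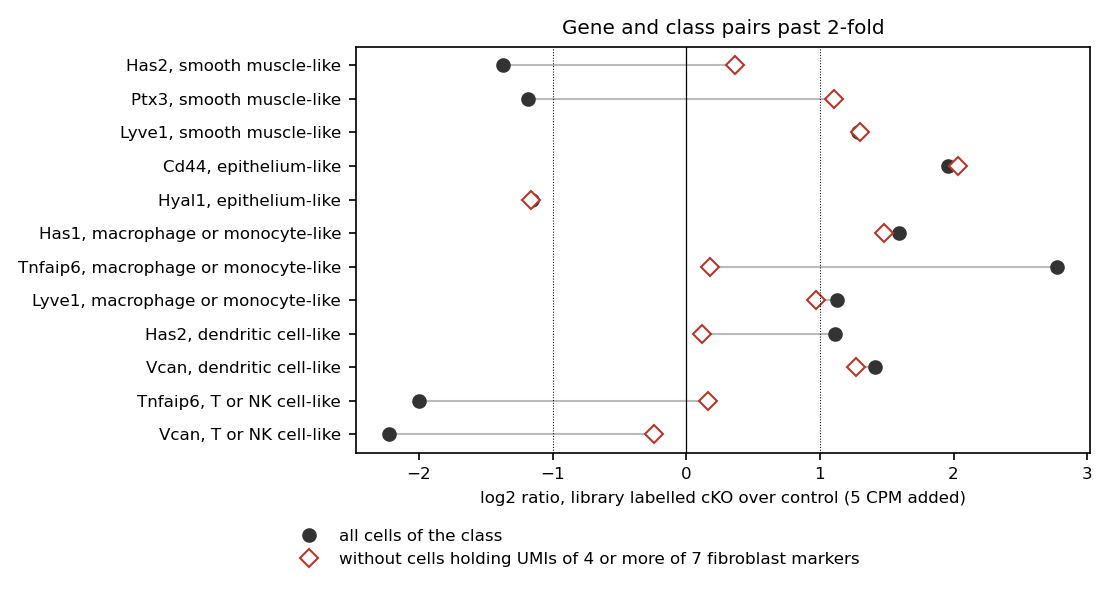
Log2 ratio of cKO over control after adding 5 CPM (x axis) for each gene and class past 2-fold, over all cells of the class (filled) and without cells that hold UMIs of at least 4 of the 7 fibroblast markers (open). Tnfaip6 in macrophage or monocyte-like cells falls from 2.77 to 0.18, and Lyve1 in smooth muscle-like cells stays at 1.30.

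Across the 23 clusters of at least 50 cells, with both libraries summed, the genes most like Has2 by Pearson's r of log2(CPM + 5) were Cilp (0.94), Sfrp4 (0.94) and Igfbp3 (0.92). For Tnfaip6 they were Gfpt2 (0.95), which makes a hyaluronan precursor, Col14a1 (0.92) and Thbd (0.92). For Ptx3 they included Thbd (0.91) and Cilp (0.89), and for Has1 they were Lum (0.95), Mgp (0.95) and Nog (0.94). For Vcan they were Lrp1 (0.93), Dpt (0.88) and Ctsk (0.88). For Cd44 they included Fam111a (0.91) and Cep170 (0.87), and for Lyve1 they were Tspan18 (0.90), Sh3gl3 (0.88) and Dmtn (0.85). Among the 9 genes, Has2 had an r of 0.88 with Tnfaip6 and with Ptx3, and Cd44 had -0.74 with Hyal1. The clusters share libraries and differ in depth, so these values are descriptions.

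The 9 genes lie apart in the genome except Hyal2 and Hyal1, which are neighbours on chromosome 9 (107567873 to 107572778 and 107576950 to 107581699, GRCm38.p6). Has1 lies on chromosome 17 (17833691 to 17855589), Has2 on 15 (56665627 to 56694546), Cd44 on 2 (102811141 to 102901669), Tnfaip6 on 2 (52038113 to 52056681), Ptx3 on 3 (66219887 to 66225806), Vcan on 13 (89655309 to 89743027) and Lyve1 on 7 (110850607 to 110862953). Annotated genes overlap 6 of the 9: Spaca6 and Gm36907 overlap Has1, Has2os overlaps Has2, Gm23731 overlaps Cd44, Veph1 overlaps Ptx3, Gm16318 and Gm4117 overlap Vcan, and Hyal3 and Naa80 overlap Hyal1. The use of strand in counting is not given in the sources used here, so reads of overlapping genes may not be separate. Has2os itself had 24 and 37 UMIs in fibroblast-like cells, beside 1761 and 5534 of Has2.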

How the data were processed

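The authors deposited unfiltered UMI counts per gene and barcode, with no normalization. The file headers name Cell Ranger version 4 and the submitters' processing notes name Cell Ranger 6.1.1 and mm10, and this difference was not resolved. Barcodes were kept as cells with 1000 or more UMIs, 500 or more genes and no more than 20% mitochondrial UMIs. Counts of both libraries were log-normalised (scanpy 1.11.5, anndata 0.12.19, Python 3.11.15). 2000 variable genes without the hyaluronan genes, 30 principal components, 15 nearest neighbours weighted by shared neighbours and Leiden clustering (igraph 0.11.9, resolution 1) gave 25 clusters. No batch correction was made, since library and group are the same.

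A cluster was named X-like where at least 3 markers of a type were found in at least 25% of its cells and at least 2-fold over the median cluster. It stayed unnamed where another type's markers outnumbered its own among its 10 leading genes, or where it was shallow with no marker among them. UMIs were summed per class and library and scaled to counts per 1000000 (CPM). Classes with at least 100 cells per library were compared. Genes of at least 10 CPM in either library were measured. Levels have exact Poisson, shares exact Clopper-Pearson and ratios exact conditional intervals (scipy 1.17.1), and a count of 0 was read as up to 3 counts. The script for ratios was tested on simulated data.

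Free RNA was scaled from empty droplets (1 to 100 UMIs) to 9.09% (control) and 5.89% (cKO) of UMIs. That is the lowest of 3 immune classes by collagen, Dcn and Lum counts. Scrublet called 4 of 7076 cells (0.0565%), too few for the caller to have worked, and doublets remain.

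The 9 genes, the gene lists and the markers were chosen with earlier results of these data known. Named genes are those 9, listed pathway genes past 2-fold or highest in their role, and the 3 genes most like each of the 9 across clusters, of which some are not reported here.

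Several choices were changed after values for these genes had been seen. The neighbour graph was built in 4 versions, because clusters of the earlier ones changed with the processor setting. Cluster borders moved between versions, so values of single clusters are less settled than those of classes. A rule that left deep clusters with another type's markers unnamed was dropped after it had unnamed a fibroblast cluster. The free RNA share was first taken from T or NK cell-like cells alone. The limit of 4 fibroblast markers, the counts of cells holding 50% of UMIs, the lymphatic marker check and the promoter motifs were also chosen then.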

Additional observations from a re-analysis of the deposited data

Results flagged for a closer look

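3 genes were past 2-fold in opposite directions in 2 classes, and none of these differences was tested. The share of all measured genes past 2-fold in opposite directions is not given here, so this count has no background beside it. Has2 had a log2 ratio of 1.11 in dendritic cell-like and -1.37 in smooth muscle-like cells, 2.48 apart. Tnfaip6 had 2.77 in macrophage or monocyte-like and -2.00 in T or NK cell-like cells, 4.77 apart. Vcan had 1.41 in dendritic cell-like and -2.22 in T or NK cell-like cells, 3.64 apart. Without cells that hold at least 4 fibroblast markers the values were 0.12 and 0.37 for Has2, 0.18 and 0.16 for Tnfaip6, and 1.27 and -0.24 for Vcan.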

How the results depend on the processing

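Each of 30 log2 ratios was recomputed under 14 other settings, and 20 kept their sign in all of them. Of the 12 past 2-fold, 9 kept their sign and 3 stayed past 2-fold in all 14: Lyve1 in smooth muscle-like cells (1.10 to 1.40), Cd44 in epithelium-like cells (1.67 to 3.47) and Has1 in macrophage or monocyte-like cells (1.48 to 1.94). The 1.48 of Has1 is without cells of 4 fibroblast markers, where its control level was no higher than free RNA would give. No setting combined that removal with the subtraction of free RNA. The 3.47 of Cd44 is with free RNA subtracted, where its control level was under what free RNA would give. That value therefore depends on the 5 CPM added. Within epithelium-like cluster 0 the Cd44 log2 ratio was -0.99. Fibroblast-like ratios of Has1, Has2, Tnfaip6 and Vcan stayed above 0. The sign turned for Ptx3 in smooth muscle-like cells with thinning (0.20), with variable genes over all genes (1.16) and without cells of 4 fibroblast markers (1.11). It turned for Has2 there without those cells (0.37), and for Tnfaip6 in T or NK cell-like cells without the highest Scrublet scores (0.17) and without those cells (0.16). These rest on 0 to 13 UMIs per library. The count of fibroblast-like genes at least 2-fold higher was 0, 1 with thinning (Has2) and 2 without clusters over 90% from 1 library (Has2 and Tnfaip6). That last setting leaves fibroblast-like cluster 9 with a larger share of cells in cKO than in control. Gene and class pairs at least 2-fold higher fell from 7 to 4 without cells of 4 fibroblast markers. Pairs at least 2-fold lower fell from 5 to 3 with variable genes over all genes, to 3 without the highest Scrublet scores and to 1 without cells of 4 fibroblast markers. The shares of all genes past 2-fold were not computed under these other settings. Whether all genes moved likewise is therefore not known. Thinning moved the share of cells with a Has2 UMI from 28.5% to 9.49% (control) and from 46.0% to 20.4% (cKO), and with a Ptx3 UMI from 26.4% to 11.1% and from 29.96% to 12.75%. Thinning keeps fewer UMIs per cell, and the cause of the other changes was not tested. In fibroblast-like cells Cd44 (-0.13) ranged from -0.23 to 0.20 and Ptx3 (-0.02) from -0.12 to 0.34, so neither has a settled direction. Median of ratios scaling moved the median of all genes from 0.10 to 0.0034 in fibroblast-like, from 0.19 to 0.0012 in smooth muscle-like and from 0.26 to 0.07 in epithelium-like cells. The settings without cells of 4 fibroblast markers, with another Leiden seed and with 30 nearest neighbours were added after seeing the data. No paired analysis was possible because each group is 1 pooled library, and for the same reason no library could be left out.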
